A study of Mus musculus with 15 samples.

Results

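Immediate early genes and MAP kinase phosphatase genes were followed across mouse erythroid precursor lines that differ by 1 amino acid of GATA1. The set held 10 genes: Egr1, Fos, Fosb, Jun, Junb, Ier2, Phlda1, Dusp1, Dusp2 and Dusp6. They were taken by symbol from the platform annotation, keeping probe sets annotated to 1 symbol alone, and each of the 10 had 1 such probe set. They are 10 of the 19933 genes tested. The arrays measured total RNA of G1E cells, proerythroblast-like cells without functional GATA1, the transcription factor on which red cell maturation depends. Every line had been given GATA1 fused to a hormone-binding estrogen receptor domain (GATA1-ER) and was exposed to 100 nM estradiol for 24 hours, wild type (WT) included. The fusion carried D218Y, D218G, R216W, R216Q or no change, with 3 biological replicates of each, so 15 arrays in all. The changed residues both belong to the amino-terminal finger of GATA1, which helps bind DNA and the cofactor FOG1. The sources used here name neither the promoter and vector that drive the fusion nor the number of separately derived lines behind each construct. Each construct was therefore taken as 1 line, and p-values measure the spread between replicate samples within lines. In the main fit each gene had 1 estimate of that spread, shared by all 15 arrays. Untreated cells were not analysed here, so every change below is a mutant line set against induced WT.

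Immediate early genes are switched on within minutes of a growth factor, cytokine or stress signal, without new protein synthesis, mostly through the ERK, JNK and p38 MAP kinases acting on transcription factors already bound to DNA. The proteins of the Fos and Jun families pair to form the factor AP-1, and EGR1 is a zinc finger factor that binds GC-rich sites. Dual-specificity phosphatases of the Dusp family are induced by the same signals and remove phosphates from MAP kinases, which closes a negative feedback loop. In blood precursors these genes respond to cytokines such as erythropoietin and stem cell factor, and Egr1 is also known for its part in stem cell quiescence and in the monocyte lineage.

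Values are log2 RMA values, a background-corrected, quantile-normalised and probe-summarised scale on which a difference of 1 is a 2-fold change. Each probe set has its own scale, so changes are compared between lines. Levels are set against other genes only as a rough guide, in summed marker levels and beside the median gene. The brightest probe sets weigh most in a sum. A change was called when the adjusted p was under 0.05, using limma's moderated test with Benjamini-Hochberg adjustment over all 19933 genes, two-sided. Errors are SD over 3 arrays for a line and limma's standard error (SE) for a log2 fold change. The 4 comparisons with WT share the same 3 WT arrays, so they are given side by side and are not independent of each other.

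Over all probe sets, values ran from 2.89 to 13.58 and array medians from 6.24 to 6.41. The medians were 6.24 to 6.29 in D218Y, 6.25 to 6.40 in D218G, 6.32 to 6.36 in R216W, 6.32 to 6.38 in R216Q and 6.31 to 6.41 in WT. Each D218Y array thus had a median below those of all WT arrays, and the values were not rescaled in the main fit. The median SD of a gene within a line was 0.05 in D218Y, 0.08 in D218G, 0.05 in R216W, 0.05 in R216Q and 0.06 in WT. Gata1 itself lay between 12.05 and 12.38 on every array. It averaged 0.29 below WT in D218Y (log2 fold change -0.29, limma adjusted p = 1.12e-06), and its log2 fold change was -0.00 in D218G, -0.11 in R216W and -0.21 in R216Q. Whether this probe set separates the fusion from any transcript of the disrupted allele was not checked. Of 11 erythroid markers measured, 11 fell in D218Y, 8 in D218G, 7 in R216W and 8 in R216Q. Their summed level (log2 of the sum) was 13.86 to 13.89 in D218Y, 14.78 to 14.80 in D218G, 14.85 to 14.88 in R216W, 14.78 to 14.80 in R216Q and 15.08 to 15.10 in WT. Of 10 mast cell markers, Tpsab1, Ms4a2, Hdc and Cpa3 rose and Mcpt4 fell in D218Y, named here after their values were seen. The median log2 fold change of the 10 markers in D218Y was -0.005. Their summed level was 9.68 to 9.79 in D218Y, 8.43 to 8.52 in D218G, 8.41 to 8.49 in R216W, 8.60 to 8.64 in R216Q and 8.46 to 8.51 in WT. Slc4a1, the red cell anion exchanger, averaged 6.81 in D218Y, 11.30 in D218G, 12.29 in R216W, 11.35 in R216Q and 12.41 in WT, while Klf1, an erythroid transcription factor, averaged between 11.30 and 11.58 in every line. Of 7 megakaryocyte markers, Itgb3, Gp9, Tubb1 and Plek fell in D218Y, D218G and R216Q, Itga2b also fell in D218Y, and Gp9 and Tubb1 fell in R216W, again named after their values were seen. Their summed level was 9.86 to 9.94 in D218Y, 10.45 to 10.61 in D218G, 11.03 to 11.11 in R216W, 10.34 to 10.40 in R216Q and 11.62 to 11.64 in WT. Granulocyte and monocyte markers summed to 9.14 to 9.18 in D218Y and 8.99 to 9.09 in WT, lymphoid markers to 8.30 to 8.40 in D218Y and 8.43 to 8.58 in WT, and stromal markers to 10.23 to 10.31 in D218Y and 9.62 to 9.75 in WT. The stromal class did not rise as a whole: of its 8 genes in D218Y, Vim, the brightest, rose (1.90), Col3a1 fell (-0.26) and the median was -0.08. These marker shifts move with several changes described below, and their part in them was not tested. In RNA from whole cultures, fewer cells of a type and less RNA per cell cannot be told apart.

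Of the 10 genes, 8 changed in D218Y (3 higher, 5 lower), where 44.4% of all genes were called, 20.3% higher and 24.2% lower. In D218G 5 changed (2 higher, 3 lower), against 18.1% of all genes (10.3% higher, 7.77% lower). In R216W 4 changed (1 higher, 3 lower), against 16.6% of all genes (9.36% higher, 7.23% lower). In R216Q 4 changed (2 higher, 2 lower), against 21.5% of all genes (11.8% higher, 9.65% lower). The median log2 fold change of the 10 genes was -0.14 in D218Y, -0.07 in D218G, -0.11 in R216W and -0.01 in R216Q, while the median over all genes was -0.07 in D218Y, -0.02 in D218G, -0.02 in R216W and -0.01 in R216Q. The genes thus moved in both directions, and the set had no common direction. In limma's F test, which asks whether any of the 5 lines differs, 6 of the 10 passed (Egr1, Jun, Junb, Ier2, Phlda1 and Dusp1), against 41.9% of all genes.

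**Figure D1:**
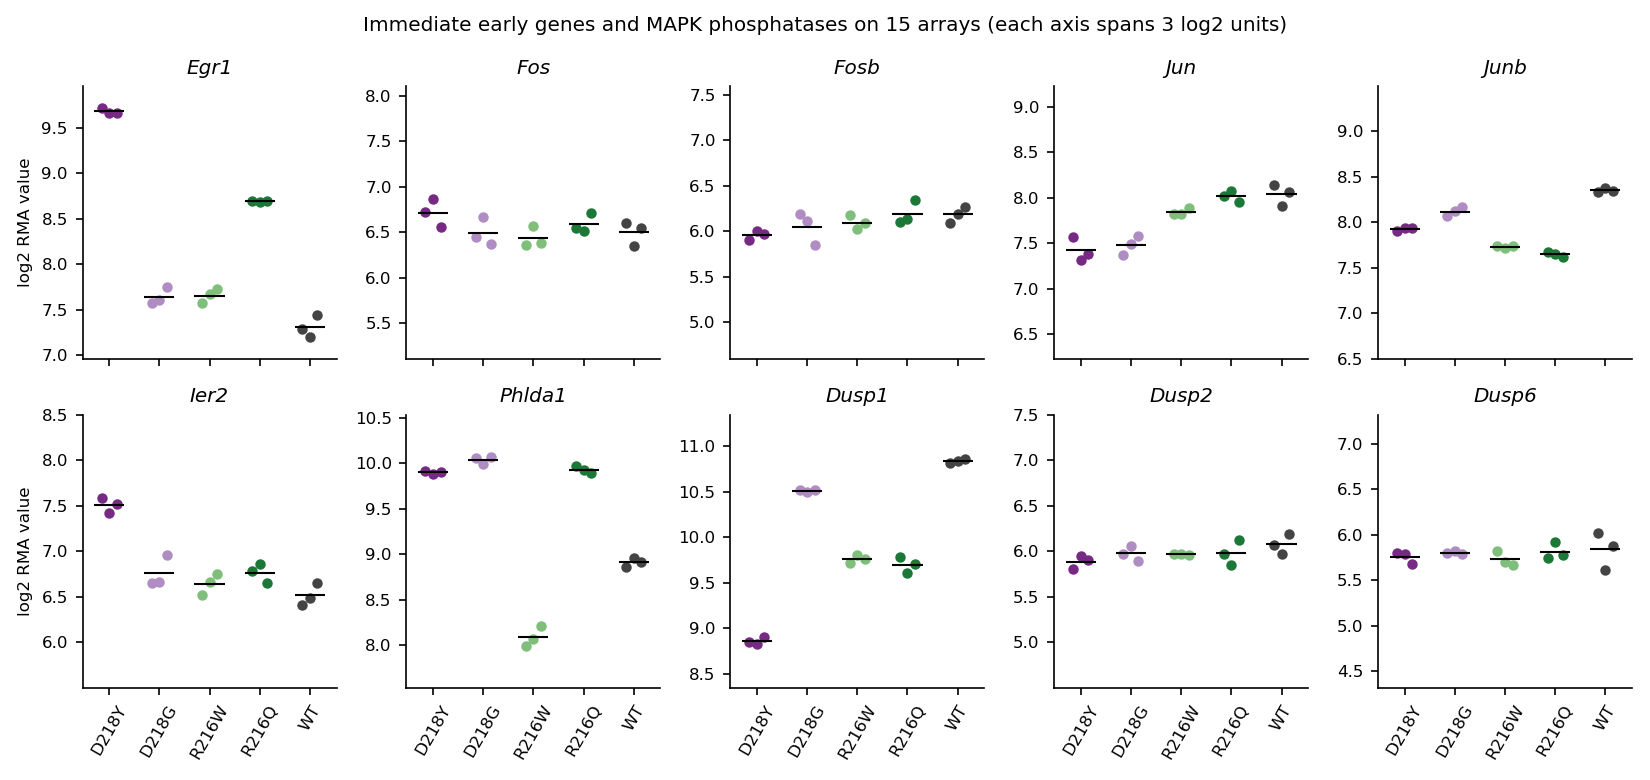
Each panel plots the log2 RMA value of 1 gene (vertical axis, always 3 log2 units tall) on the 3 arrays of D218Y, D218G, R216W, R216Q and WT, with points for arrays and a line for the mean. Egr1 was highest in D218Y (9.68) and lowest in WT (7.31), Dusp1 the other way round (8.86 in D218Y and 10.84 in WT), and Phlda1 was lowest in R216W (8.09).

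Egr1, a zinc finger factor gene often used as a readout of ERK signalling, rose in each mutant line. Its log2 values were 9.72, 9.66 and 9.66 in D218Y, 7.57, 7.61 and 7.75 in D218G, 7.57, 7.67 and 7.72 in R216W, 8.69, 8.68 and 8.70 in R216Q, and 7.29, 7.20 and 7.44 in WT. No mutant array reached down to the highest WT array, and the D218Y and R216Q arrays stood clear of all others. Egr1 was 5.17-fold above WT in D218Y (log2 fold change 2.37, SE 0.06, limma adjusted p = 3.57e-13) and 2.60-fold above WT in R216Q (1.38, SE 0.06, adjusted p = 8.74e-10). The rise was 1.26-fold in D218G (0.33, SE 0.06, adjusted p = 0.00114) and 1.27-fold in R216W (0.35, SE 0.06, adjusted p = 8.90e-04). The order of the levels was thus D218Y, R216Q, then R216W and D218G together, then WT. D218G and R216W, the neighbours in that order that were not told apart, differed by -0.01 (95% interval -0.14 to 0.12, adjusted p = 0.947).

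Ier2, a small nuclear protein encoded by a growth-factor-induced gene, was raised most in D218Y. Its log2 values were 7.59, 7.42 and 7.53 in D218Y, 6.65, 6.66 and 6.96 in D218G, 6.52, 6.67 and 6.75 in R216W, 6.79, 6.86 and 6.65 in R216Q, and 6.41, 6.48 and 6.65 in WT. The D218Y arrays lay above every other array, while the arrays of the other mutant lines ran close to or into the WT range. The gene doubled in D218Y, at 2.00-fold WT (log2 fold change 1.00, SE 0.09, limma adjusted p = 3.01e-07). The differences from WT missed the threshold in D218G (0.24, 95% interval 0.05 to 0.44, adjusted p = 0.0881), in R216W (0.13, -0.07 to 0.33, adjusted p = 0.448) and in R216Q (0.25, 0.06 to 0.45, adjusted p = 0.0681). The R216Q difference passed without replicate 3 of R216Q (adjusted p = 0.0463), of D218G (0.0227) or of WT (0.0329), and the D218G difference passed without replicate 3 of WT (0.0440). With array weights both passed, in R216Q (0.00139) and D218G (0.0298), as they did among genes above the median intensity (0.0365 and 0.0476). The R216Q difference also passed with the array median as a covariate (0.0492). Neither passed in any other alternative setting. D218Y also exceeded D218G by 0.75 (adjusted p = 9.80e-06), R216W by 0.87 (adjusted p = 1.65e-06) and R216Q by 0.75 (adjusted p = 1.27e-05).

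Fos and Fosb, whose proteins pair with Jun proteins in AP-1, showed little movement. Of their relatives in the wider list below, Fosl1 averaged 6.45 in D218Y and 6.02 in WT. Fosl2 averaged 6.31 in D218Y and 6.46 in WT. Fos had log2 values of 6.72, 6.86 and 6.56 in D218Y, 6.45, 6.67 and 6.37 in D218G, 6.36, 6.57 and 6.38 in R216W, 6.55, 6.51 and 6.71 in R216Q, and 6.6, 6.35 and 6.55 in WT. All 4 mutant lines overlapped WT. The difference from WT was 0.21 in D218Y (95% interval 0.01 to 0.42, limma adjusted p = 0.0839), -0.00 in D218G (-0.21 to 0.20, adjusted p = 0.995), -0.07 in R216W (-0.27 to 0.14, adjusted p = 0.764) and 0.09 in R216Q (-0.12 to 0.30, adjusted p = 0.663). On the measured scale these bounds lie below the Egr1 changes in D218Y and R216Q. Fos ran only from 6.35 to 6.86 and has no detection call, so the bounds do not limit a change compressed by RMA. Under quantile normalization the Fos difference in D218Y was 0.28 and passed (adjusted p = 0.00746). It also passed under cyclic loess (0.32, adjusted p = 0.00383) and with arrays centred on their medians (0.31, adjusted p = 0.00379). The same held with the array median as a covariate (0.38, adjusted p = 0.00607) and without D218Y replicate 3 (0.29, adjusted p = 0.0344). Fosb averaged 5.96 ± 0.05 in D218Y and 6.18 ± 0.09 in WT (SD, n = 3 each), with the D218Y arrays (5.90, 6.0 and 5.97) all below those of WT (6.09, 6.19 and 6.27). Its fall of -0.23 in D218Y (SE 0.09, adjusted p = 0.0448) was lost in 15 of 27 alternative settings, among them quantile normalization (-0.11, adjusted p = 0.165). With single arrays left out, its adjusted p ran from 0.0119 to 0.161, and the call was lost without any 1 of the D218Y arrays, WT replicate 2 or 3, R216W replicate 2 or 3, or R216Q replicate 2. Fosb differed from WT by -0.13 in D218G, -0.09 in R216W and 0.01 in R216Q, none of which passed.

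Jun and Junb encode the Jun-side partners of AP-1, and they differed in which lines lowered them. Jun, the strong activator of the pair, had log2 values of 7.57, 7.32 and 7.38 in D218Y, 7.37, 7.49 and 7.58 in D218G, 7.82, 7.83 and 7.89 in R216W, 8.02, 8.07 and 7.96 in R216Q, and 8.14, 7.91 and 8.06 in WT. The arrays of both D218 lines lay below all others, and R216Q overlapped WT. Jun fell 34.6% in D218Y (log2 fold change -0.61, SE 0.07, limma adjusted p = 5.69e-06) and 31.9% in D218G (-0.55, SE 0.07, adjusted p = 7.25e-05). It did not pass in R216W (-0.19, 95% interval -0.35 to -0.04, adjusted p = 0.10) or in R216Q (-0.02, -0.18 to 0.14, adjusted p = 0.922). The lines at the 2 residues were also compared directly. D218Y was below R216W by -0.42 (adjusted p = 2.81e-04) and below R216Q by -0.59 (adjusted p = 1.49e-05). D218G was below R216W by -0.36 (adjusted p = 0.00188) and below R216Q by -0.53 (adjusted p = 1.34e-04). Within a residue, Jun differed by -0.06 for D218Y minus D218G (95% interval -0.22 to 0.10, adjusted p = 0.570) and by -0.17 for R216W minus R216Q (adjusted p = 0.153). R216W passed against WT under quantile normalization (-0.25, adjusted p = 0.00881), with array weights (-0.24, adjusted p = 0.0127) and without WT replicate 2 (-0.26, adjusted p = 0.0310).

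Junb, whose protein can restrain Jun at AP-1 sites and is known to rise during erythroid differentiation of cultured cells, fell in each mutant line. Its log2 values were 7.90, 7.93 and 7.93 in D218Y, 8.06, 8.13 and 8.16 in D218G, 7.73, 7.71 and 7.74 in R216W, 7.68, 7.65 and 7.62 in R216Q, and 8.33, 8.37 and 8.34 in WT. The 3 WT arrays were the highest of the 15, and the arrays of the R216 lines were the lowest. The fall was 25.6% in D218Y (log2 fold change -0.43, SE 0.03, limma adjusted p = 8.95e-08), 14.9% in D218G (-0.23, SE 0.03, adjusted p = 2.22e-04), 34.9% in R216W (-0.62, SE 0.03, adjusted p = 1.26e-08) and 38.5% in R216Q (-0.70, SE 0.03, adjusted p = 2.69e-09). Junb was therefore lowest in the R216 lines, where Jun did not pass. R216W and R216Q differed by 0.08 (95% interval 0.01 to 0.16, adjusted p = 0.154), and each other pair of mutant lines passed. The pair D218Y and D218G (-0.20, adjusted p = 4.22e-04) was lost when arrays were centred on their medians (-0.13, adjusted p = 0.163). The pair D218Y and R216W (0.19, adjusted p = 4.14e-04) was lost under quantile normalization (0.08, adjusted p = 0.0999).

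Phlda1, a pleckstrin homology domain protein induced by growth factors and linked to control of receptor signalling, was the gene whose direction differed between lines. Its log2 values were 9.91, 9.88 and 9.91 in D218Y, 10.06, 9.99 and 10.07 in D218G, 8.0, 8.07 and 8.21 in R216W, 9.98, 9.92 and 9.90 in R216Q, and 8.86, 8.96 and 8.91 in WT. The D218Y, D218G and R216Q arrays lay above all WT arrays, and the R216W arrays lay below them. Phlda1 rose 1.99-fold in D218Y (log2 fold change 0.99, SE 0.05, limma adjusted p = 4.16e-10), 2.19-fold in D218G (1.13, SE 0.05, adjusted p = 2.21e-09) and 2.03-fold in R216Q (1.02, SE 0.05, adjusted p = 2.38e-09). In R216W it fell 43.3% (-0.82, SE 0.05, adjusted p = 2.66e-08). The R216W level was below that of R216Q by -1.84 (adjusted p = 1.36e-11), although both replace the same arginine. D218Y was above R216W by 1.81 (adjusted p = 8.43e-13), and D218G was above it by 1.95 (adjusted p = 1.53e-12). The raised lines were close to one another. D218Y minus R216Q was -0.03 (95% interval -0.14 to 0.08, adjusted p = 0.684) and D218G minus R216Q was 0.11 (0.00 to 0.22, adjusted p = 0.220). D218Y minus D218G was -0.14 (adjusted p = 0.0484), a call lost in 16 of 28 alternative settings, 11 of them with 1 array left out.

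Dusp1, which encodes the nuclear phosphatase MKP-1 that acts on p38, JNK and ERK, fell in each mutant line. Its log2 values were 8.85, 8.83 and 8.90 in D218Y, 10.52, 10.49 and 10.52 in D218G, 9.72, 9.80 and 9.75 in R216W, 9.78, 9.61 and 9.70 in R216Q, and 10.82, 10.83 and 10.86 in WT. The lines formed 4 separate levels, WT above D218G, then R216W with R216Q, and D218Y lowest. The fall was 74.6% in D218Y (log2 fold change -1.98, SE 0.04, limma adjusted p = 6.82e-14), 20.3% in D218G (-0.33, SE 0.04, adjusted p = 6.51e-05), 52.7% in R216W (-1.08, SE 0.04, adjusted p = 3.37e-10) and 54.7% in R216Q (-1.14, SE 0.04, adjusted p = 2.00e-10). R216W and R216Q differed by 0.06 (95% interval -0.03 to 0.15, adjusted p = 0.469), whereas D218Y lay below D218G by -1.65 (adjusted p = 1.23e-12). Dusp1 and Egr1 both departed furthest from WT in D218Y. They departed least in D218G for Dusp1, and in D218G and R216W for Egr1.

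Dusp2 and Dusp6 encode phosphatases that act mainly on ERK, Dusp2 in the nucleus and Dusp6 in the cytoplasm, and both stayed in a narrow range. Dusp2 had log2 values of 5.81, 5.95 and 5.91 in D218Y and 6.07, 5.97 and 6.19 in WT, and over all 15 arrays it ran from 5.81 to 6.19. Its fall of -0.19 in D218Y (SE 0.07, limma adjusted p = 0.0388) was lost in 11 of 27 alternative settings, among them quantile normalization (-0.08, adjusted p = 0.218) and the fits without D218Y replicate 1 or 3 or WT replicate 1 or 3 (adjusted p from 0.0666 to 0.180). All genes had a median of -0.07 in that comparison. It differed from WT by -0.10 in D218G, -0.11 in R216W and -0.10 in R216Q, none of which passed. Dusp6 ran from 5.61 to 6.02 over the 15 arrays, and those extremes were both WT arrays. It differed from WT by -0.08 in D218Y (95% interval -0.26 to 0.09, adjusted p = 0.429), -0.04 in D218G (adjusted p = 0.859), -0.11 in R216W (adjusted p = 0.515) and -0.03 in R216Q (adjusted p = 0.912). Without WT replicate 2, the lowest of the 15 arrays, it passed in D218Y (-0.19, adjusted p = 0.0290) and R216W (-0.22, adjusted p = 0.0407). Fosb, Dusp2 and Dusp6 had means below that of the median gene. The deposited values carry no detection call, so low expression and background cannot be told apart for these 3 genes, and RMA compresses changes at this end of the scale.

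**Figure D2:**
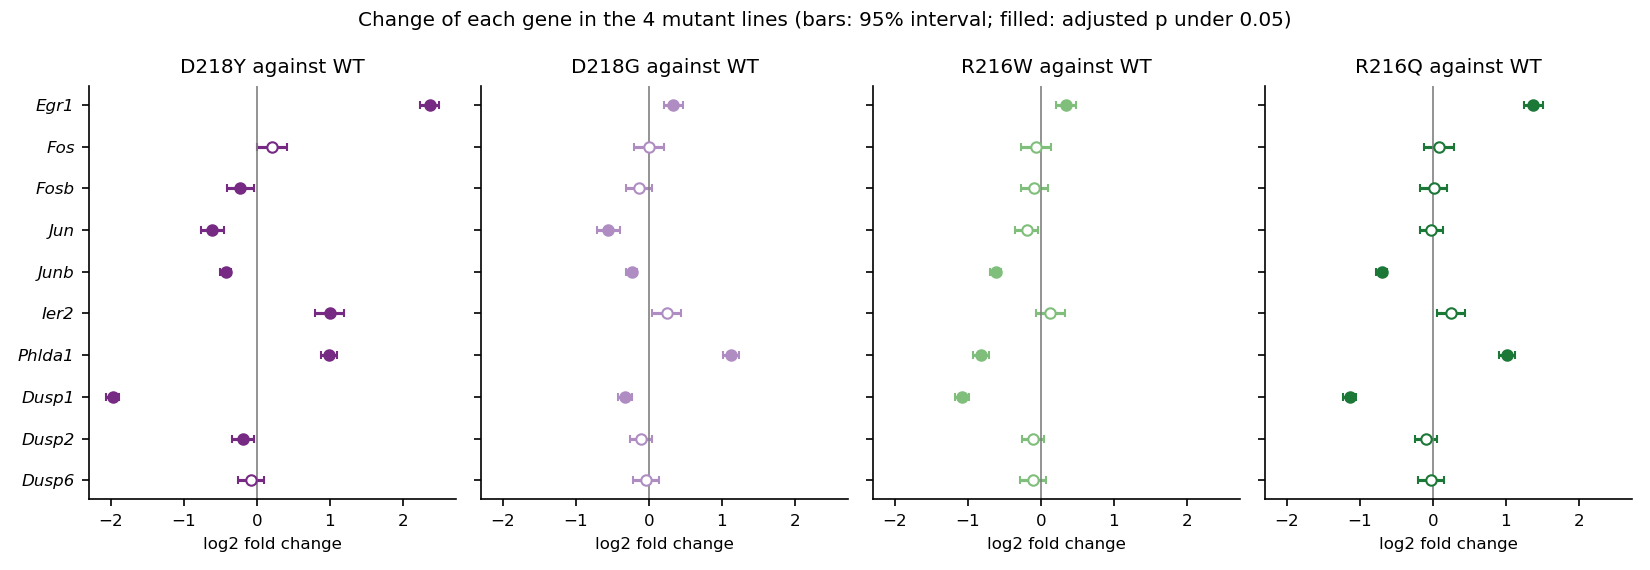
Each panel gives the log2 fold change of the 10 genes in 1 mutant line against WT (horizontal axis), with 95% intervals. Filled points passed at an adjusted p under 0.05. Egr1 lies to the right of 0 and Junb and Dusp1 to the left in each panel, and Phlda1 lies to the left of 0 in R216W alone.

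An exact permutation test of 3 against 3 arrays, two-sided, cannot give a p below 0.1. That smallest value is reached where the arrays of the compared lines do not overlap. It was reached by 8 of the 10 genes in D218Y (55.9% of all genes), 6 in D218G (26.4% of all genes), 6 in R216W (30.1% of all genes) and 5 in R216Q (31.7% of all genes).

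Substitutions at the same residue were next set against each other. D218Y and D218G differed in 5 of the 10 genes (2 higher and 3 lower in D218Y), where 33% of all genes were called (17.4% higher, 15.6% lower). Egr1 was 4.10-fold higher in D218Y than in D218G (2.04, limma adjusted p = 3.87e-12) and Ier2 was also higher, while Dusp1, Junb and Phlda1 were lower. R216W and R216Q differed in 2 of the 10 genes, against 16.9% of all genes (8.25% higher, 8.65% lower), and both were lower in R216W: Phlda1, as above, and Egr1 (-1.03, adjusted p = 2.13e-08). Across residues, 4 genes differed between D218G and R216Q (13.4% of all genes), 4 between D218G and R216W (22% of all genes), 6 between D218Y and R216Q (31.8% of all genes) and 7 between D218Y and R216W (36.3% of all genes). For Dusp1, D218G exceeded R216Q by 0.81 (adjusted p = 1.10e-08) and R216W by 0.75 (adjusted p = 6.41e-09). For Egr1, D218Y exceeded R216Q by 0.99 (adjusted p = 1.13e-08) and R216W by 2.02 (adjusted p = 2.14e-12). Of the genes that missed the F test, Fos differed between D218Y and R216W (0.28, adjusted p = 0.0332) and Fosb between D218Y and R216Q (-0.24, adjusted p = 0.0483). The Fos call was lost in 6 of 28 alternative settings, among them the fits without D218Y replicate 1 or 2 or R216W replicate 1 or 3, and the Fosb call in 18 of 27.

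**Figure D3:**
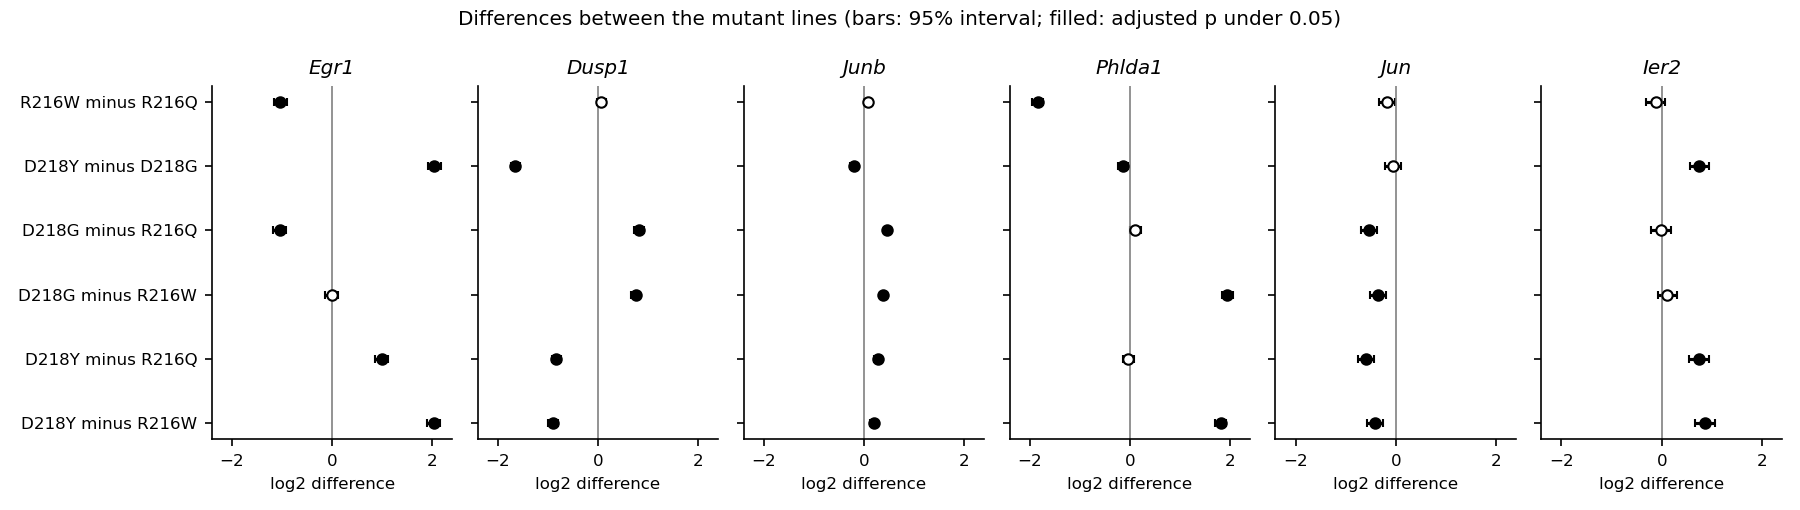
Each panel gives, for 1 gene that passed the F test, the log2 difference between pairs of mutant lines (horizontal axis, first-named line minus the second) with 95% intervals, filled where the adjusted p was under 0.05. R216W minus R216Q is far from 0 for Egr1 (-1.03) and Phlda1 (-1.84), and D218Y minus D218G for Egr1 (2.04) and Dusp1 (-1.65).

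Promoter sequence is shown for the called genes with the clearest falls, Dusp1, Junb and Jun, since Dusp1 and Junb moved down in every mutant line and Jun in the D218 lines. The RefSeq promoter table (GRCm38.p6) matched 7 of the 10 genes, all but Egr1, Ier2 and Phlda1. The 250 bases before each annotated start are printed 5′ to 3′ on the gene's strand. The windows are chr17:26508473-26508722 (minus strand) for Dusp1, chr4:95052223-95052472 (minus strand) for Jun and chr8:84978749-84978998 (minus strand) for Junb. Capitals mark the motif matches found.
Dusp1: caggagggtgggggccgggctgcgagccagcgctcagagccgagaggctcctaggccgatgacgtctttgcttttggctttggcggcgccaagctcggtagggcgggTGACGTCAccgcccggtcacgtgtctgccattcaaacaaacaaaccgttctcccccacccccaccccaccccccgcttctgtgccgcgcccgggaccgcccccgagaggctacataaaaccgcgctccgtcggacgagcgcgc
Jun: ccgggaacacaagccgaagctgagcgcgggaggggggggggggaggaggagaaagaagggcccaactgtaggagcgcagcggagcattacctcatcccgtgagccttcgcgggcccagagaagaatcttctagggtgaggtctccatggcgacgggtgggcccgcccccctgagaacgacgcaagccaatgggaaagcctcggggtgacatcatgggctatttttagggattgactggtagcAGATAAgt
Junb: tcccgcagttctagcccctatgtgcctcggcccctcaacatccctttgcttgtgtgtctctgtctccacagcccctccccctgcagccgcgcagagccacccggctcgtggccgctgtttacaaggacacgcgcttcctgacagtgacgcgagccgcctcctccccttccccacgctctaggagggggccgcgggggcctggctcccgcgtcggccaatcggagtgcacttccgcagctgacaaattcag
The motifs searched, on both strands, were the cAMP response element TGACGTCA, the AP-1 site TGANTCA, the Egr site GCGNGGGCG, the Ets site CCGGAA, the CArG box bound by SRF, and the GATA site, which is GATA with A or T before it and A or G after it. Dusp1 held the cAMP response element, 143 to 136 bases before its start, a motif found in 1.55% of 32851 promoter windows of the same length. Jun held a GATA site (AGATAA) 8 to 3 bases before its start, a motif found in 26.5% of windows. Junb held none of the 6. Of the windows not printed, those of Fosb and Dusp2 each held 1 Egr site (GCGGGGGCG), 50 to 42 bases before the start of Fosb and 98 to 90 before that of Dusp2, a motif found in 4.7% of windows, and those of Fos and Dusp6 held none of the 6. No window held more than 1 match, so no matches overlapped. A match describes these letters and is no evidence of binding. A missing match covers only the 250 bases before the start and these exact letters. Sites further upstream and near matches were not searched.

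Other immediate early genes were read from a list of 39, all measured. In D218Y 26 changed (13 higher, 13 lower), 66.7% against 44.4% of all genes. In D218G 7 changed (2 higher, 5 lower), 17.9% against 18.1% of all genes. In R216W 8 changed (6 higher, 2 lower), 20.5% against 16.6%, and in R216Q 12 (6 higher, 6 lower), 30.8% against 21.5%. Their median log2 fold change was -0.09 in D218Y, -0.03 in D218G, -0.01 in R216W and 0.01 in R216Q. The largest changes were in D218Y: Pim1, a survival kinase induced by cytokine receptors, fell (-1.66, SE 0.04, limma adjusted p = 8.70e-14), and Klf10 (1.23, SE 0.08, adjusted p = 1.12e-08), Plk3 (1.13, SE 0.07, adjusted p = 6.76e-09) and Sgk1 (1.13, SE 0.05, adjusted p = 4.84e-11) rose. Klf10, a transforming growth factor beta-induced Krüppel-like factor, also rose in D218G (0.26), R216W (0.70) and R216Q (0.41). Like the members, the wider list moved in both directions.

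Of 7 other MAP kinase phosphatase genes, 5 changed in D218Y (2 higher, 3 lower), 71.4% against 44.4% of all genes. In each of D218G, R216W and R216Q 2 changed (1 higher and 1 lower), a share of 28.6% beside 18.1% of all genes in D218G, 16.6% in R216W and 21.5% in R216Q. Dusp7, a cytoplasmic ERK phosphatase, rose in D218Y (1.27, SE 0.05, limma adjusted p = 7.03e-11) and in D218G (0.26). Its log2 fold change was 0.15 in R216W (adjusted p = 0.0831) and -0.16 in R216Q (adjusted p = 0.0525). Dusp8, which acts on JNK and p38, fell in D218Y (-0.76, SE 0.07, adjusted p = 4.04e-07), R216W (-0.52) and R216Q (-0.34), and it was -0.04 in D218G, which did not pass. Dusp16, another JNK phosphatase, rose in D218Y (0.18), R216W (0.30) and R216Q (0.24) and fell in D218G (-0.25). Dusp4, a nuclear phosphatase, fell in D218Y (-0.27, adjusted p = 0.00142). Its mean was only 5.48 in D218Y and 5.75 in WT, so low expression and background cannot be told apart. The fall was not followed through the alternative settings. Dusp7 therefore rose in D218Y, the line in which Dusp1 fell furthest.

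Of 17 genes known as targets or feedback inhibitors of ERK signalling, 7 changed in D218Y (5 higher, 2 lower), a share of 41.2% that was no higher than the 44.4% of all genes. In D218G 5 changed (3 higher, 2 lower), in R216W 5 (5 higher) and in R216Q 5 (4 higher, 1 lower), a share of 29.4% in each line beside 18.1% of all genes in D218G, 16.6% in R216W and 21.5% in R216Q. Etv5, an ETS factor induced through ERK, rose in each line, by 2.17 in D218Y (SE 0.07, limma adjusted p = 4.25e-12), 0.71 in D218G, 0.36 in R216W and 1.32 in R216Q. Etv5 had 2 probe sets, and these values come from the brighter of them alone. The other is not described, and which locus the brighter one reads was not checked. Spred1, an inhibitor of Ras activation, rose in D218Y (0.93, SE 0.06, adjusted p = 9.75e-09), R216W (0.38) and R216Q (0.59), with a value of 0.14 in D218G that did not pass (adjusted p = 0.181). Spry1, a receptor feedback inhibitor, went the other way, falling in D218Y (-0.66, SE 0.05, adjusted p = 4.12e-08), D218G (-0.50) and R216Q (-0.51), and rose in R216W (0.19, adjusted p = 0.0182). Phlda3, a relative of Phlda1 that antagonises Akt, rose in D218Y (0.54), D218G (0.64) and R216Q (0.52), while its value of 0.11 in R216W did not pass (adjusted p = 0.175). R216W was also the line in which Phlda1 fell.

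The kinases upstream were read from lists of the ERK cascade, with 13 of 20 genes measured, and of the p38 and JNK cascades, with 17 of 18 measured. In the ERK cascade 9 changed in D218Y (5 higher, 4 lower), 69.2% against 44.4% of all genes, and 3 in D218G (3 lower), 23.1% against 18.1%. In R216W 5 changed (3 higher, 2 lower), 38.5% against 16.6%, and in R216Q 6 (5 higher, 1 lower), 46.2% against 21.5%. The kinases that phosphorylate ERK parted, with Map2k1 higher in D218Y (0.61), R216W (0.44) and R216Q (0.73) and Map2k2 lower in D218Y (-0.56), D218G (-0.18), R216W (-0.20) and R216Q (-0.40). In the p38 and JNK cascades 10 changed in D218Y (9 higher, 1 lower), 58.8% against 44.4% of all genes, and the 9 that rose were 52.9% of the list against 20.3% of all genes. In D218G 4 changed (4 higher), 23.5% against 18.1% of all genes. In R216W 6 changed (4 higher, 2 lower), 35.3% against 16.6%, and in R216Q 7 (6 higher, 1 lower), 41.2% against 21.5%. Their median log2 fold change was 0.27 in D218Y, beside -0.07 for all genes, and 0.04 in D218G, 0.04 in R216W and -0.00 in R216Q. Mapkapk3, a kinase activated by p38 and ERK, rose in D218Y (1.54, SE 0.04, limma adjusted p = 1.07e-12), D218G (0.85), R216W (0.26) and R216Q (0.87).

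The factors that drive immediate early promoters (SRF, its ternary complex partners, CREB and MEF2 proteins) gave 12 genes, of which 8 changed in D218Y (4 higher, 4 lower), 66.7% against 44.4% of all genes. In the other lines the share was near or below that of all genes: 2 changed in D218G (1 higher, 1 lower), 16.7% against 18.1%, 1 in R216W (1 higher), 8.33% against 16.6%, and 3 in R216Q (1 higher, 2 lower), 25% against 21.5%. Srf, which binds the CArG boxes of immediate early genes, rose in D218Y (0.52, SE 0.04, limma adjusted p = 1.46e-07) and passed in no other line. Its coactivator gene Mrtfb rose in D218Y (0.84, SE 0.05, adjusted p = 1.67e-09), D218G (0.36), R216W (0.28) and R216Q (0.32). Crem, a cAMP-responsive factor gene, fell in D218Y (-0.56, SE 0.10, adjusted p = 1.92e-04). Of 9 heat shock and stress genes measured from a list of 10, 7 changed in D218Y (4 higher, 3 lower), 77.8% against 44.4% of all genes, and 2 in D218G (1 higher, 1 lower), 22.2% against 18.1%. In R216W 3 changed (2 higher, 1 lower), 33.3% against 16.6%, and in R216Q 6 (4 higher, 2 lower), 66.7% against 21.5%. The stress factor gene Ddit3 fell in D218Y (-0.22, adjusted p = 9.64e-04), R216W (-1.10, SE 0.05, adjusted p = 5.39e-10) and R216Q (-0.30, adjusted p = 1.88e-04), and its value of -0.12 in D218G did not pass (adjusted p = 0.112).

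**Figure D4:**
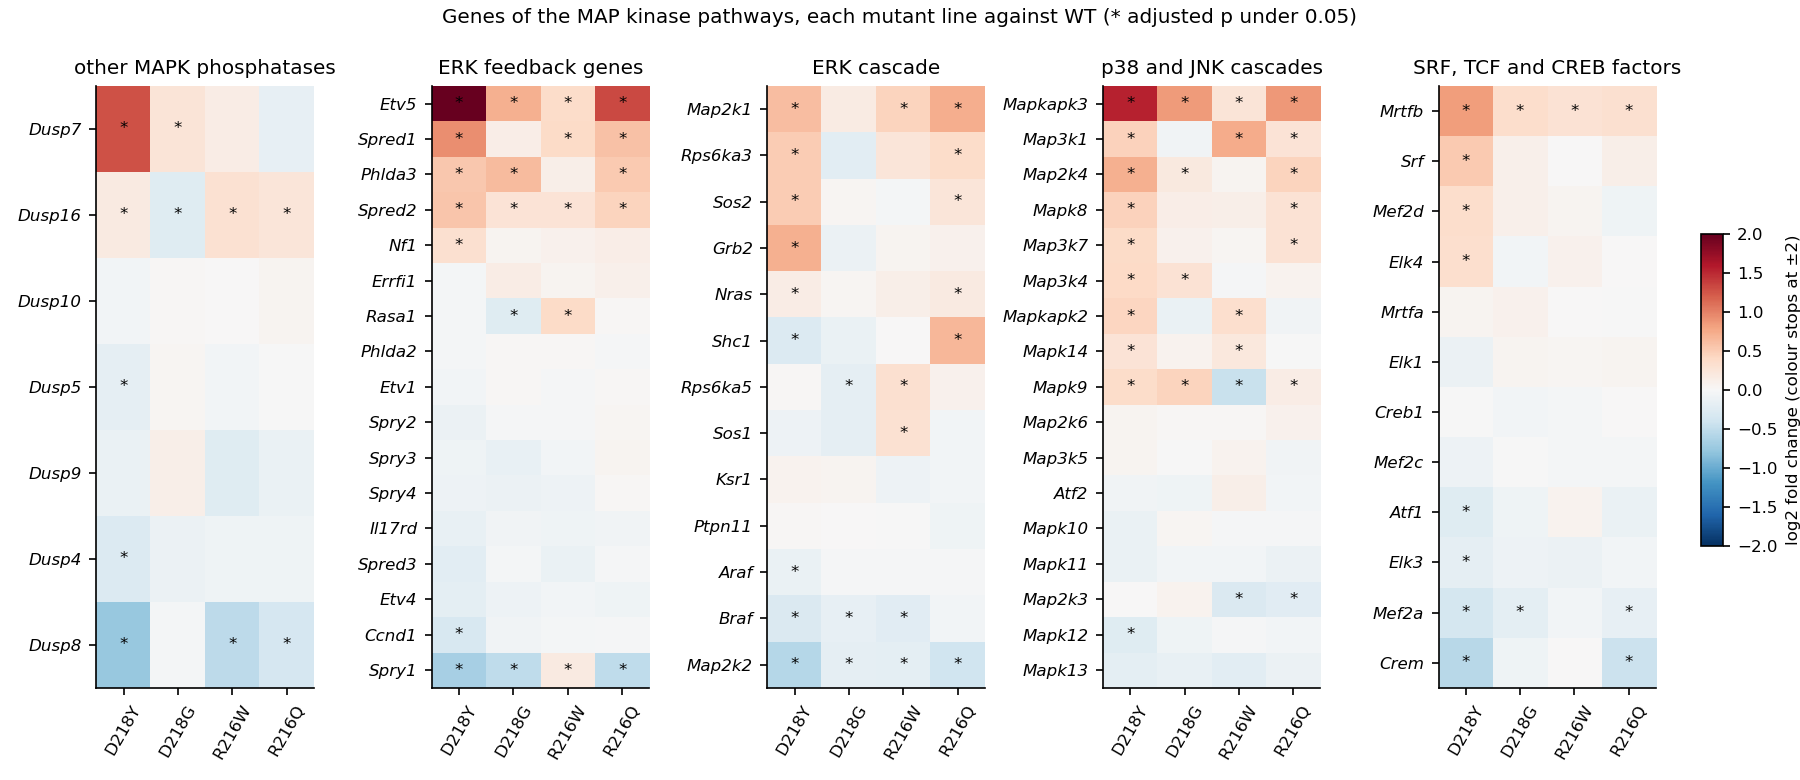
Each row is a gene of 1 pathway list and each column a mutant line, coloured by log2 fold change against WT, with asterisks at an adjusted p under 0.05. Etv5 (2.17 in D218Y), Mapkapk3 (1.54) and Dusp7 (1.27) are the strongest rises shown, and each list holds both rises and falls. The Etv5 row shows the brighter of its 2 probe sets, whose locus was not checked.

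For each gene that passed the F test, the genes with the most similar pattern were sought by Pearson correlation over the 15 arrays, among 3153 genes whose line means spanned at least 0.5. The arrays form 5 lines measured on the same scale, so r mostly reflects 5 line means and is given as a description. Egr1 was most like Prep (r = 0.994), Stard8 (0.991) and Piwil4 (0.991), and Ier2 was most like Cmtr2 (0.987), Tma16 (0.986) and Tut1 (0.983). Dusp1 was most like Tnfrsf14 (0.995), Retreg2 (0.995) and Tubgcp3 (0.993), and Phlda1 was most like Adk (0.973), Rrn3 (0.972) and Ddah2 (0.967). Jun was most like Btg2 (0.934), an antiproliferative gene of the immediate early list above, then Arpc1a (0.933) and Dqx1 (0.921). Junb was most like Chek2 (0.975), Tlcd1 (0.969) and Btk (0.942).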

How the data were processed

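The authors deposited log2 values, made with Partek 6.6 and RMA per the submitters' processing notes, which give no settings. Each array has 1 value per probe set, used unchanged and with no filter. Groups came from the sample titles. Of 28350 probe sets, 21780 had 1 symbol in the platform annotation, 1618 several and 4952 none listed, and 21689 matched the RefSeq gene table. Where a gene had several probe sets (996 genes), the one with the highest mean was kept, leaving 19933 genes. Of the pathway genes named above, Etv5 and Dusp8 had 2 probe sets and Mrtfb 3, and their other probe sets are not described. Some genes counted but not named also had several, among them the heat shock genes Hspa8 and Hsp90aa1 with 3 and Hspb1 with 2. Which locus each kept probe set reads was not checked.

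Linear models were fitted with limma 3.58.1 (R 4.3.3) to all 15 arrays, with a mean for each line, 10 pairwise contrasts, the F test, eBayes and Benjamini-Hochberg adjustment within each contrast. The fit was first tested on simulated data. Arrays carry no read depth, so precision rests on 3 arrays a line. The 2 most alike arrays correlated at 0.999, and 0 pairs were identical.

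The members and gene lists were chosen with earlier results of these data known. Named genes outside the members were Gata1, up to 4 called genes per pathway list with the largest non-overlapping changes, and the 3 most correlated genes per member, passing over placeholder symbols. Other fold changes of those genes are given for comparison. Alternatives were other normalizations, gene filters, variance models, array weights, a replicate block, a stricter threshold and each array left out.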

Additional observations from a re-analysis of the deposited data

How the results depend on the processing

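Of 21 calls of members against WT, 19 held in direction and threshold under each of the 28 alternatives that could give a value, and the exceptions were Fosb and Dusp2 in D218Y. Of 28 calls between mutant lines, 23 held. Of 19 differences from WT that missed the threshold, 6 passed under some alternative. No alternative moved a count of members called by over 1.5 times. The alternative of genes above the median intensity leaves out Fosb, Dusp2 and Dusp6. With single arrays left out, the members called against WT numbered 6 to 8 in D218Y, 5 to 6 in D218G, 4 to 6 in R216W and 4 to 5 in R216Q. Counts over all genes moved more. Centring arrays on their medians gave 2358 calls for D218G against WT (reported 3601), 2098 for R216W against WT (reported 3308), 2037 for R216W against R216Q (reported 3369) and 1609 for D218G against R216Q (reported 2668). It also raised the share of calls that were higher to 66.6% for D218Y against WT (reported 45.6%), 66.7% for R216W against WT (reported 56.4%), 69.9% for D218Y against D218G (reported 52.8%), 75.8% for D218Y against R216Q (reported 51.7%) and 65.9% for D218Y against R216W (reported 51.8%). Fitting the compared lines alone gave 2106 calls for D218G against WT and 1541 for D218G against R216Q. Array weights gave 10775 for D218Y against D218G (reported 6583) and 4802 for D218G against R216Q. The causes were not tested. The sign turned for differences near 0 that had missed the threshold, and of these Dusp6 in D218Y passed in 1 setting, without WT replicate 2. Fos in D218G against WT was 0.0225 under quantile normalization, 0.0236 under cyclic loess, 0.0223 after centring and 0.0357 with the array median as a covariate, which was chosen after seeing the data. Dusp6 in D218Y against WT was 0.0281, 0.0425 and 0.0113 under quantile, loess and centring, and Dusp6 in D218G was 0.0028 under loess. Jun in D218Y against D218G was 0.0096 after centring and 0.0110 with array weights. Ier2 in D218G against R216Q was 0.0021 under quantile normalization and 0.0118 after centring, Phlda1 in D218Y against R216Q was 0.0601 after centring, and Fosb in D218G against WT was 0.0298 with array weights. With single arrays left out, the difference from WT ran from -0.194 to 0.0091 for Dusp6 in D218Y, -0.147 to 0.0562 for Dusp6 in D218G, -0.138 to 0.0653 for Dusp6 in R216Q, -0.0892 to 0.0602 for Fos in D218G, -0.0657 to 0.0550 for Fosb in R216Q and -0.0862 to 0.0317 for Jun in R216Q. It ran from -0.110 to 0.0451 for Ier2 in D218G against R216Q and from -0.0665 to 0.0259 for Egr1 in D218G against R216W. The replicate numbers did not pair the samples: deviations of same-numbered arrays correlated between -0.50 and 0.41, above 0.1 in 3 of 30 pairs, and 1 of 15 arrays correlated best with its own number. With a replicate block, 6 members were called in D218Y against WT (8 without it), and 5 in D218G, 4 in R216W and 4 in R216Q, the same counts as without it.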
